A study of Mus musculus with 1931 samples.

Results

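The genes described here were 9 readouts of signalling by bone morphogenetic proteins (BMPs): the inhibitors of DNA binding Id1, Id2, Id3 and Id4, the receptor-activated Smads of the BMP branch Smad1, Smad5 and Smad9, and the inhibitory Smads Smad6 and Smad7. They were taken by name, and all 9 were among the 20999 genes of the deposited table. Earlier results of these data were known when they were chosen. BMP ligands bind serine/threonine kinase receptors, which phosphorylate Smad1, Smad5 and Smad9, and these enter the nucleus with Smad4 and switch on targets, among them the Id genes and the genes of the feedback inhibitors Smad6 and Smad7. Id proteins carry a helix-loop-helix domain without a DNA-binding basic region and keep E proteins (Tcf3, Tcf4, Tcf12) from binding DNA. In the early mouse embryo BMP4 from the extraembryonic ectoderm acts on the epiblast. The mRNA of a receptor-activated Smad does not measure its phosphorylation, and Id genes also respond to other signals, serum included, which was present in the culture media.

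The cells came from Rosette-to-Lumen stage embryoids (RtL-embryoids), aggregates of 3 mouse embryonic stem cell (ESC) lines in agarose microwells. Kermit ESCs carry GFP under the Oct3/4 promoter and were meant to form the epiblast (Epi)-like part, 5-Factor ESCs carry doxycycline-inducible Cdx2, Tfap2c, Eomes, Gata3 and Ets2 for the extraembryonic ectoderm (ExE)-like part, and mCherry-marked iGATA6 ESCs carry doxycycline-inducible Gata6 for the visceral endoderm (VE)-like part. Doxycycline (2 µg/ml) was given to the aggregates in reconstructed embryo medium and withdrawn before harvest, and 1 pool of hand-picked structures was sorted by GFP, mCherry and CD40 staining onto plates 3, 4 and 5. Each 2D culture, by contrast, was 1 plate: Kermit ESCs in 2i/LIF without doxycycline (plate 7), 5-Factor cells reprogrammed to induced trophoblast stem cells (iTSC, plate 8) with doxycycline in FGF4-containing medium, and iGATA6 cells reprogrammed to induced extraembryonic endoderm cells (iXEN, plate 9) with doxycycline. In iTSC and iXEN, too, doxycycline was withdrawn before harvest.

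Of 1931 wells, 1406 held a cell with at least 2500 genes above 0. On plates 3, 4 and 5 the wells were grouped by column, and of the 982 cells there 31.98% were in columns 1 to 8 (Epi-like wells), 32.08% in columns 9 to 16 (VE-like wells) and 35.95% in columns 17 to 24 (ExE-like wells). The 2D cultures gave 424 cells, 33.49% of them ESC and 33.25% each iXEN and iTSC. The names rest on marker genes. Of the ExE markers, Cdx2, Eomes, Tfap2c and Gata3 are also transgenes of the 5-Factor line. Their levels do not separate transgene from endogenous transcripts. All 6 Epi markers, all 7 VE markers and all 7 ExE markers had their highest 3D mean in the block of that name, and the marker list with the highest mean was the block's own in every Epi-like cell, in 98.1% of VE-like cells and in 70.8% of ExE-like cells. VE markers summed to 2.11 (plates 1.65 to 2.84) in the ExE-like wells against 23.5 in the VE-like wells, and 16 ExE-like cells reached the VE-marker level of VE-like cells. The VE-like wells also held parietal endoderm genes (summed level 95.2, against 2.09 in the Epi-like and 6.96 in the ExE-like wells). Fibroblast markers summed to at most 0.0420 in any group. Median genes per cell were 4823, 5348 and 5396 in the Epi-like, VE-like and ExE-like wells and 8537 to 9093.5 in the 2D cultures, so shares of cells are not compared between 3D and 2D.

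Levels are mean TP10k, that is TPM (abundance per transcript length and library) rescaled to a sum of 10000 in each cell and averaged over all cells of a group, cells at 0 counted in. Each condition was 1 pool or culture, so no difference has a biological replicate and none was tested. Plates 3, 4 and 5 are technical splits of 1 pool. A gene was called between 2 groups when the means differed at least 2-fold, in the same direction on each of the 3 plates where there were 3, among genes above 0 in at least 10% of cells of either group. The 2D plates show how far a level moves between column blocks within 1 culture. Well position and the sampling of cells both enter this and cannot be told apart. Between column blocks of the same 2D plate Id2 differed at most 1.54-fold, Smad7 at most 1.29-fold and Smad5 at most 1.94-fold. Id1 differed up to 3.56-fold and Id3 up to 7.61-fold, both in iTSC. At low levels the spread was wider still, up to 16.7-fold for Smad6 in iXEN (0.00241 to 0.0402 TP10k) and up to 5.40-fold for Smad9. The widest spreads rest on few cells, with Id3 above 0 in 24 iTSC cells and Smad6 in 20 iXEN cells. In 3D, column and compartment cannot be told apart.

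Id2 was the Id gene of the ExE-like wells. Its mean was 8.66, 8.56 and 9.78 TP10k on plates 3, 4 and 5 there, against 0.349, 0.409 and 0.393 in the Epi-like wells and 0.566, 0.577 and 0.513 in the VE-like wells. The plates of the ExE-like wells lay far above all plates of the other blocks, 23.4-fold above the Epi-like wells (plates 20.9 to 24.9) and 16.2-fold above the VE-like wells (plates 14.8 to 19.1). Id2 was above 0 in 93.2% of ExE-like cells (exact Clopper-Pearson 95% interval 90.1 to 95.6, which like all intervals here covers counting error only), in 47.6% of VE-like cells (42 to 53.3) and in 29% of Epi-like cells (24 to 34.3). The level was spread over the cells rather than carried by a few, with a median of 7.62 TP10k per ExE-like cell. In 2D the mean was 7.42 in iTSC, 1.42 in iXEN and 0.153 in ESC. The ExE-like wells and iTSC differed 1.21-fold.

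Id1 was the leading Id gene of the VE-like wells. Its mean there was 2.34, 2.08 and 1.23 TP10k on plates 3, 4 and 5. It was 1.57, 1.34 and 0.701 in the ExE-like wells and 0.439, 0.434 and 0.252 in the Epi-like wells. On each plate the order was VE-like, ExE-like, Epi-like, with VE-like wells 5.11-fold above Epi-like wells (plates 4.81 to 5.33) and ExE-like wells 3.24-fold above them (2.78 to 3.57). The VE-like wells exceeded the ExE-like wells on every plate, but by less than 2-fold. Plate 5 held the lowest Id1 level of all 3 blocks, and also the lowest Id3 level, whereas Id2 was not lowest there in the Epi-like or ExE-like wells. Median genes per cell on plate 5 were 4199, 4957 and 4551.5 in the 3 blocks, against 5710, 6622 and 6683.5 on plate 3, and the part of depth in these plate differences was not tested. Id1 was above 0 in 77.8% (72.8 to 82.2) of the cells in VE-like wells, 46.2% (40.9 to 51.5) in ExE-like wells and 24.5% (19.9 to 29.7) in Epi-like wells. In 2D it was 1.77 in iXEN, 0.668 in iTSC and 0.0706 in ESC, so iXEN lay within the plate range of the VE-like wells.

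Id3 was detected in about the same share of cells in the 3 blocks, with 46.8% (41.2 to 52.5) in the Epi-like, 50.5% (44.8 to 56.1) in the VE-like and 53.8% (48.5 to 59.1) in the ExE-like wells. Its level was higher in the ExE-like wells. Plates 3, 4 and 5 gave 3.00, 2.74 and 2.31 TP10k there, 0.693, 1.15 and 0.531 in the Epi-like wells and 0.939, 0.906 and 0.461 in the VE-like wells. The ExE-like plates did not overlap the others, while the Epi-like and VE-like plates did. The ratios were 3.39-fold (plates 2.39 to 4.35) over the Epi-like and 3.45-fold (3.02 to 5.01) over the VE-like wells. In 2D all 3 means were lower, 0.447 in iXEN, 0.228 in iTSC and 0.176 in ESC. In iTSC, 24 cells (17%) had Id3 above 0, and the tenth of cells with the most Id3 held 95.3% of its sum. Id4 was close to 0 except in the Epi-like wells, at 0.0553, 0.0255 and 0.0750 TP10k on the 3 plates, and in ESC, at 0.0287. In VE-like and ExE-like wells it was above 0 in 6 cells (1.90%) and 4 cells (1.13%). The annotation places an antisense and a long noncoding gene over Id4 exons, and without strand in the libraries their reads cannot be separated from those of Id4.

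**Figure D1:**
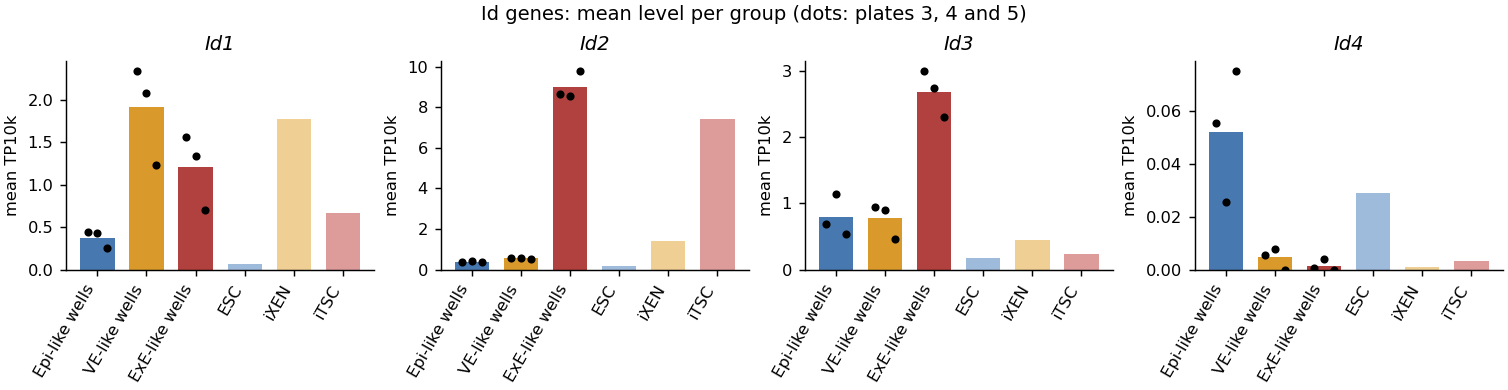
Mean TP10k (y axis, linear, each panel with its own scale) of Id1, Id2, Id3 and Id4 in the 6 groups (x axis). Bars are means over all cells of a group and black dots are the means on plates 3, 4 and 5. Id2 stands at 8.99 in the ExE-like wells and 7.42 in iTSC, Id1 is highest in VE-like wells and iXEN, and Id3 is highest in the ExE-like wells.

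Summed over the 4 genes, Id mRNA was 0.428 TP10k in ESC, 1.60 in Epi-like wells (plates 1.25 to 2.02), 3.25 in VE-like wells (2.21 to 3.85), 3.64 in iXEN, 8.32 in iTSC and 12.9 in ExE-like wells (12.6 to 13.2). The make-up of this sum differed between compartments. Id3 made 49.5% of it in the Epi-like wells, Id1 made 58.8% in the VE-like wells and Id2 made 69.7% in the ExE-like wells. In 2D the leading gene was Id3 in ESC (41.1%), Id1 in iXEN (48.7%) and Id2 in iTSC (89.2%), the same leading gene as in each 3D counterpart. Immediate early genes, which answer serum and handling, summed to 2.78, 3.32 and 3.37 TP10k in the Epi-like, VE-like and ExE-like wells and to between 2.46 and 3.64 in 2D, and their mean had r between -0.12 and 0.15 with Id1, Id2 and Id3 per cell in the 6 groups. No Id gene was above 0 in 33.4% of cells in the Epi-like wells, 10.2% in the VE-like wells and 2.27% in the ExE-like wells.

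**Figure D2:**
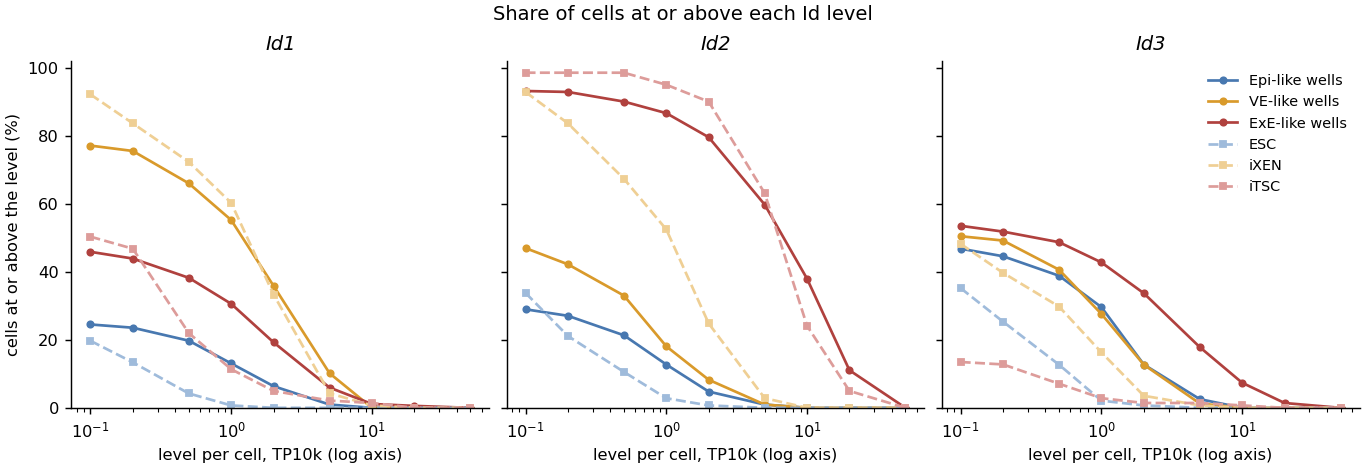
Percent of cells (y axis) at or above a given level per cell (x axis, TP10k, log axis) for Id1, Id2 and Id3. Solid lines with circles are 3D well blocks, dashed lines with squares are 2D cultures. The Id2 curves of ExE-like wells and iTSC run far to the right of all others, and the Id3 curve of ExE-like wells starts near the other 3D curves at 53.5% and falls off later.

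In the genome (GRCm38, GENCODE vM21) Id2 lies on chr12:25093799-25097140 on the minus strand, Id3 on chr4:136143497-136145755 and Id1 on chr2:152736251-152737410, both on the plus strand, and Smad6 on chr9:63953076-64022059 on the minus strand. RefSeq promoter windows (GRCm38.p6, from 250 bases before to 50 after the start RefSeq gives) were on hand for 7 of the 9 genes. Those of Id2 (chr12:25096043-25096342), Id3 (chr4:136143572-136143871), Smad5 (chr13:56702760-56703059, plus strand) and Smad6 (chr9:64022010-64022309) are shown because these 4 genes were called higher in the ExE-like wells against both other blocks. The RefSeq starts of Id2 and Id3 lie downstream of the outermost GENCODE start, so both windows fall inside the GENCODE gene. Smad5 had 3 windows, and the one printed starts its transcript where the GENCODE gene does. Capitals mark GGCGCC, a GC-rich element bound by Smad1 and Smad5, and the Smad-binding letters GTCT or AGAC, which are the same element read on either strand.
Id2: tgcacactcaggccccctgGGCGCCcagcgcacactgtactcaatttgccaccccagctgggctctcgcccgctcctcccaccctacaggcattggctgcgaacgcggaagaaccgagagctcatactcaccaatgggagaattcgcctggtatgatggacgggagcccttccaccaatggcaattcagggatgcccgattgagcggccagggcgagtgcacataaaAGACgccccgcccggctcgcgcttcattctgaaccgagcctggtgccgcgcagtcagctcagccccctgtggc
Id3: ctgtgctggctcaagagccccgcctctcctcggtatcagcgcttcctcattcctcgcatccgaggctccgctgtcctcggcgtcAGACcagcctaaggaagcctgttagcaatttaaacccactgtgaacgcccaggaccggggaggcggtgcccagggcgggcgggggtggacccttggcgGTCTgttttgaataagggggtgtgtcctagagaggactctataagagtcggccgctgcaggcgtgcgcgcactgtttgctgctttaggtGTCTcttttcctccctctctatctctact
Smad5: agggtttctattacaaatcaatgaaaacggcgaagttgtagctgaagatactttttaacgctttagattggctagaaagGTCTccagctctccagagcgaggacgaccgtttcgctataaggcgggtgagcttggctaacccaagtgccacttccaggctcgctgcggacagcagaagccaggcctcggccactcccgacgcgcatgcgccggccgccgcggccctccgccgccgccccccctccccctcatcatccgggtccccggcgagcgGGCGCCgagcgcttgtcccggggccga
Smad6: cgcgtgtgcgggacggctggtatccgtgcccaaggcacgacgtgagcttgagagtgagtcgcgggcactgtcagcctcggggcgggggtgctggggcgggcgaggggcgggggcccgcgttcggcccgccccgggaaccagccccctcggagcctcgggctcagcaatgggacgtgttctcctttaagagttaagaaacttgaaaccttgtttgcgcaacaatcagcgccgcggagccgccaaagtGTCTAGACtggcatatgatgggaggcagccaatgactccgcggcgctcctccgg
GGCGCC was found once in the Id2 window, near its upstream end, and once in the Smad5 window, just after the transcript start, and not in the windows of Id3 and Smad6. A second, overlapping Smad5 window holds the same match and the third holds none. The windows of Id4 and Smad9 also held it once each, and that of Smad1 did not. Of these, Id4 was called lower and Smad9 higher in ExE-like than in Epi-like wells. Among all 32851 promoter windows 11.9% held it. GTCT or AGAC occurred 1 time each in the Id2 and Smad5 windows, 3 times in that of Id3 and 2 times in that of Smad6, where both forms lie side by side. Of all windows 88% held at least 1 match, so these letters do not set the 4 promoters apart.

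The receptor-activated Smads showed small differences and low levels. Smad1 was highest in iXEN (0.277 TP10k) and VE-like wells (0.204, 0.272 and 0.240 on plates 3, 4 and 5), and lowest in ESC (0.102). In the ExE-like wells it was 0.207, 0.141 and 0.188 and in the Epi-like wells 0.116, 0.152 and 0.163, and these plate ranges overlapped. Smad5, which acts in parallel with Smad1, was highest in the ExE-like wells at 0.291, 0.252 and 0.230 TP10k. All 3 plates lay above those of the VE-like wells (0.112, 0.153 and 0.106) and of the Epi-like wells (0.152, 0.0566 and 0.102). The ratios were 2.52-fold over Epi-like wells, 2.07-fold over VE-like wells and 2.03-fold over iTSC (0.127), all close to the 2-fold limit. Without plate 3 the latter 2 calls were lost, at log2 ratios of 0.88 and 0.92. Column blocks of the ESC plate alone differed 1.94-fold in Smad5 (0.0625 to 0.121 TP10k). Noncoding RNA genes overlap Smad5 on its own strand, so its reads may include theirs. Smad9 was above 0 in 3 Epi-like (0.955%), 11 VE-like (3.49%) and 40 ExE-like cells (11.3%), and no group exceeded 0.0175 TP10k. In the ExE-like wells its plate means of 0.0297, 0.00414 and 0.0181 spread widely.

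Smad6, which competes with Smad4 for the receptor-activated Smads, was highest on the trophoblast side. It was 0.251, 0.352 and 0.237 TP10k in the ExE-like wells and 0.458 in iTSC. All other groups had means between 0.0234 and 0.0354. The ratio of ExE-like to Epi-like wells was 8.26 (plates 5.54 to 14.6), and to VE-like wells 9.99 (4.69 to 23.2). Smad6 was above 0 in 57.8% (52.4 to 63) of ExE-like cells, 8.25% (5.46 to 11.9) of VE-like cells and 7.01% (4.44 to 10.4) of Epi-like cells. Smad7, which acts on the receptors themselves and also limits TGF-beta signalling, was detected in every group. It was 0.492, 0.481 and 0.524 TP10k in the ExE-like wells, 0.324, 0.346 and 0.336 in the Epi-like wells and 0.30, 0.231 and 0.206 in the VE-like wells. The 3 blocks did not overlap in their plate means, and the ExE-like to VE-like ratio was 2.01, a call lost without plate 4 (log2 ratio 0.98) and without plate 5 (0.87). In 2D it was 0.900 in iTSC, 0.335 in ESC, close to the Epi-like mean of 0.336, and 0.181 in iXEN. The sum of both inhibitory Smads was 0.778 in the ExE-like wells (plates 0.743 to 0.833), 0.370 in the Epi-like wells and 0.276 in the VE-like wells.

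**Figure D3:**
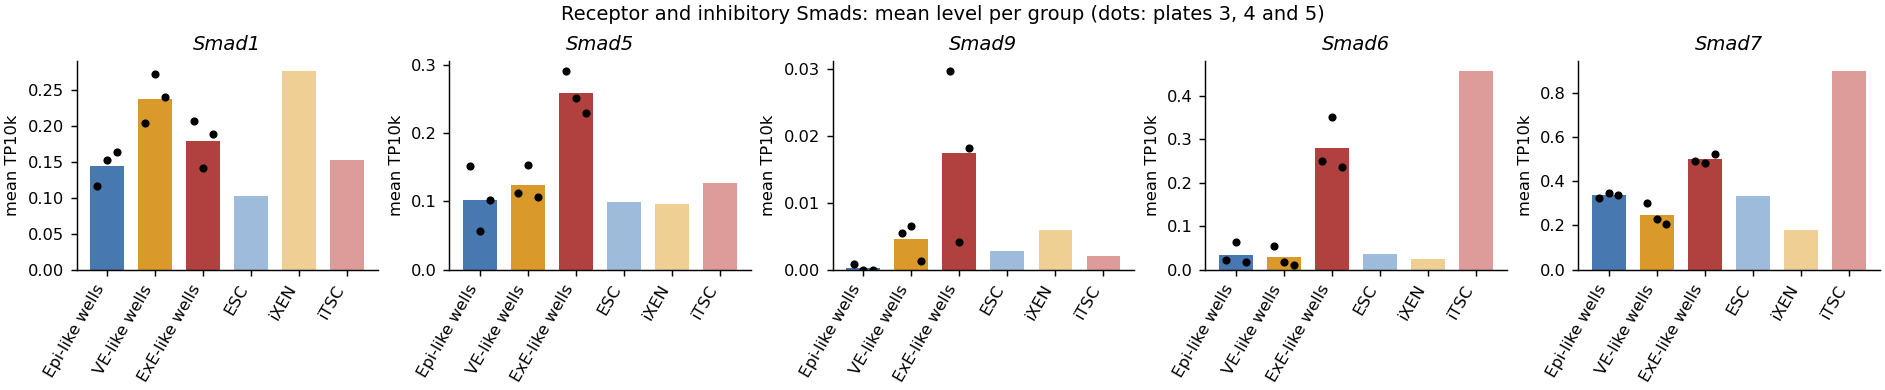
Mean TP10k (y axis, linear, each panel with its own scale) of the receptor-activated Smads Smad1, Smad5 and Smad9 and the inhibitory Smads Smad6 and Smad7 in the 6 groups (x axis). Bars are means over cells and dots the means on plates 3, 4 and 5. Smad6 reaches 0.280 in ExE-like wells and 0.458 in iTSC with all other groups at or under 0.0354, and the group means of Smad9 stay under 0.02, with plate 3 of the ExE-like wells at 0.0297.

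Across the 3D blocks, 6 of the 9 genes were called higher and 1 lower in ExE-like than in Epi-like wells (Id1, Id2, Id3, Smad5, Smad6 and Smad9 higher, Id4 lower). All 9 passed the filter, Smad6 (57.8% against 7.01% of cells) and Smad9 (11.3% against 0.955%) through the ExE-like wells alone. Id4 passed through the Epi-like wells alone (16.6% against 1.13%). The filter thus largely set the direction of these calls. Of all tested genes, 15.5% were called higher and 8.98% lower in that comparison. Against the VE-like wells 5 were higher in the ExE-like wells (Id2, Id3, Smad5, Smad6 and Smad7) and none lower, with 8 of 9 passing the filter and backgrounds of 15.5% higher and 8.86% lower. Among these calls Smad6 again passed through the ExE-like wells alone. Between VE-like and Epi-like wells Id1 was higher and Id4 lower, with 7 of 9 passing the filter and a background of 16.3% in each direction. Id4 again passed through the Epi-like wells alone. Leaving out the 16 ExE-like cells at VE-marker level, and the 2 VE-like and 2 ExE-like cells at Epi-marker level, left these counts at 7, 5 and 2. Among cells with 6000 to 9000 genes Id4 was called in neither comparison with the Epi-like wells, and Id3 and Smad7 were lost between ExE-like and VE-like wells. In the same cells, 33 of them Epi-like, Id2 and Smad6 were gained as higher in VE-like than in Epi-like wells. Without plate 3 the Smad9 call between ExE-like and Epi-like wells was lost, as Smad9 then failed the filter. Among ExE-like cells grouped by their highest marker list, Id2 was 9.73 TP10k in the 70.8% with the ExE list, 6.23 in the 64 with the VE list and 8.73 in the 39 with the Epi list, and Id1 was 1.03, 2.26 and 0.650.

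The comparison of 3D with 2D asked whether the co-culture differed from reprogramming of 1 line alone, and here culture form, medium, plate and depth differed together and cannot be told apart. In the Epi-like wells Id1 was 5.30-fold (plates 3.57 to 6.22), Id3 4.50-fold (3.01 to 6.51) and Id2 2.52-fold (2.28 to 2.68) above ESC. Among the alternatives tried, the direction turned for Id2 alone, among cells with 6000 to 9000 genes (33 Epi-like, 61 ESC). For Smad5, Smad6 and Smad7 the ESC mean lay inside the plate range of the Epi-like wells, and the low Smad9 was called lower. Thus 3 of the 9 were higher and 1 lower, with backgrounds of 11.1% and 9.21%. Smad9 passed the filter through ESC alone, which largely set its direction. In VE-like wells against iXEN none was higher (background 4.38%) and Id2 alone was lower (background 8.92%), at 0.554 against 1.42 TP10k, a 2.56-fold difference that held on all 3 plates. Id1 differed 1.08-fold there, with plates on either side of equal. In ExE-like wells against iTSC Id3 was 11.8-fold higher (plates 10.1 to 13.2), with Smad5 and Smad9 the other calls among 3 higher (background 10.2%), none lower (background 14.5%). Smad9 passed the filter through the ExE-like wells alone (11.3% against 9.93% of cells), so its call is not read against the background. The Smad5 and Smad9 calls were both lost without plate 3 and among cells with 6000 to 9000 genes, where Smad7 was called lower (log2 ratio -1.12). Smad5 was also lost with at least 4000 genes per cell and among cells whose highest list was that of their block. The plate ranges of Id3 in the ExE-like wells lay above every column block of the iTSC plate, the highest of which was 0.510. Smad6 and Smad7 were lower in the ExE-like wells than in iTSC on every plate (0.612 and 0.554 of the iTSC level) without reaching 2-fold.

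The 2D cultures share neither plate nor cell line. Among them iTSC had Id2 48.6-fold, Smad6 12.9-fold, Id1 9.46-fold and Smad7 2.69-fold above ESC, and Id4 lower (backgrounds 22.3% higher and 11.1% lower). iXEN had Id1 25.1-fold, Id2 9.27-fold, Smad1 2.71-fold and Id3 2.54-fold above ESC, beside Smad9 at 0.00596 against 0.00271 TP10k, and Id4 lower (backgrounds 20.4% and 19.2%). In the comparisons of iTSC and of iXEN with ESC, Id4 passed the filter through ESC alone, which largely set its direction. Against iXEN, iTSC had Smad6 19.6-fold (every iTSC block at least 0.443 TP10k, the highest iXEN block 0.0402), Id2 5.24-fold and Smad7 4.97-fold higher, and Id1 and Smad9 lower (backgrounds 21.1% and 12.2%). Smad9 passed the filter there through iXEN alone (11.3% against 9.93% of cells), so its call is not read against the background. Within the iTSC plate Id1 ranged from 0.340 to 1.21 TP10k between column blocks, all of which lay below the lowest iXEN block at 1.54.

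**Figure D4:**
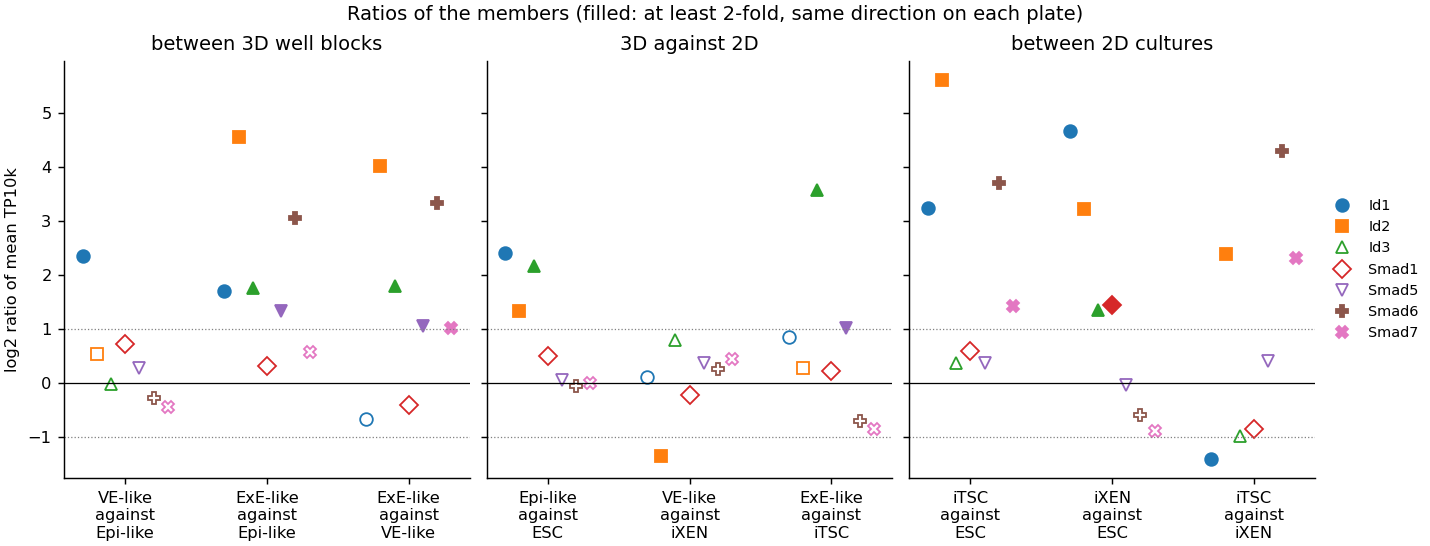
Log2 ratio of mean TP10k (y axis) for 7 of the 9 genes in the 9 comparisons (x axis, first group against second). Filled symbols were at least 2-fold apart with the same direction on each plate, dotted lines mark 2-fold, and Id4 and Smad9 are left out as near 0. Id2 and Smad6 stand highest in both comparisons of the ExE-like wells with another block, and Id3 in ExE-like wells against iTSC.

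The rest of the pathway was read from lists of related genes. Of all tested genes, 16.3% were called higher and 16.3% lower in VE-like against Epi-like wells. The shares were 15.5% and 8.98% in ExE-like against Epi-like wells, and 15.5% and 8.86% in ExE-like against VE-like wells. The lists are short, and none was tested against these shares. Of 8 BMP ligands, Bmp4 and Bmp8b were called higher in the ExE-like wells against both other blocks (Bmp4 0.943 TP10k against 0.210 in Epi-like and 0.0319 in VE-like wells), and Bmp2 and Bmp6 were higher in the VE-like wells than in both others. Bmp4 and Bmp7 were lower in VE-like than in Epi-like wells, and Bmp7 was higher in ExE-like than in VE-like wells. Of 8 receptors, 6 passed the filter. Acvr1, Bmpr2 and Acvr2a were called higher in both VE-like and ExE-like than in Epi-like wells, while Acvr2b (0.185 TP10k) and the coreceptor gene Eng (0.113) were lower in the VE-like wells than in the Epi-like wells (0.527 and 0.324) and the ExE-like wells (0.599 and 0.467). Of the 3 other Smads, Smad3, of the TGF-beta branch, was lower in the VE-like wells than in both others (0.0234 TP10k, against 0.0998 in Epi-like and 0.0648 in ExE-like wells). Smad4, the common partner, was 0.887 TP10k in the ExE-like wells against 0.415 in the Epi-like and 0.423 in the VE-like wells and was called in both comparisons.

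Among 7 other genes known to respond to BMP, 4 passed the filter in ExE-like against Epi-like wells, each through the ExE-like wells alone. All 4 were called higher, a direction the filter largely set. Their count is therefore not read against the 15.5% of all tested genes called higher. These were the homeobox genes Msx1 (0.553 against 0.0271 TP10k) and Msx2 (0.134 against 0.0109), and the trophoblast regulators Hand1 (0.838 against 0.00345) and Gata2 (0.188 against 0.00645). Msx1, Hand1 and Gata2 were also called higher against the VE-like wells, again passing the filter through the ExE-like wells alone. In VE-like against Epi-like wells Msx2 was the single one to pass the filter and was called higher, at 0.164 TP10k. It passed through the VE-like wells alone, so this call says nothing about the list. Msx1 and Gata2 were also higher in the ExE-like wells than in iTSC, whereas Hand1 was lower (iTSC 1.90 TP10k). Of 9 extracellular antagonists, follistatin (Fst) was called higher in ExE-like (0.627 TP10k) and VE-like (0.268) than in Epi-like wells (0.0466), and was 0.00331 in iTSC and 0.0213 in iXEN, below the 3D counterpart in both. Fst was above 0 in under 10% of Epi-like and of iTSC cells. Against these groups it passed the filter through the other group alone, which largely set its direction. Bmper, a secreted BMP modulator, was 0.487 TP10k in VE-like wells, called higher than in both other blocks, and 0.198 in iXEN. Chordin (Chrd) was 0.0454 TP10k in the ExE-like wells and was called higher there than in both other blocks, and Fst and Twsg1 were higher in ExE-like than in VE-like wells. Of 7 intracellular regulators, the pseudoreceptor Bambi was called higher in the ExE-like wells against both other blocks (0.151 against 0.0440 and 0.0361 TP10k), and the Smad corepressor gene Skil was highest in the Epi-like wells (0.639 TP10k, against 0.107 in ESC) and called lower in the VE-like wells (0.268). None of the E protein genes Tcf3, Tcf4 and Tcf12, whose products the Id proteins bind, was called between 3D blocks, as was true of most tested genes. Without a call, all 3 means were lower in VE-like than in Epi-like wells (median log2 ratio -0.84). All 3 were higher in ExE-like than in VE-like wells (median 0.79), while ExE-like against Epi-like wells gave a median of 0.00. Against the 2D cultures the ligand genes Bmp4, Bmp8a and Bmp8b were called lower in ExE-like wells than in iTSC (Bmp4 1.98 TP10k there), as were Acvrl1, Eng and Smad3, while Skil and Tcf4 were higher. Bmp6, Bmp8b and Smad3 were lower in VE-like wells than in iXEN, where Bmp8b passed the filter through iXEN alone. In Epi-like wells Bmp4 and Hey1 were higher, and Eng and Chrd lower, than in ESC. Of all tested genes, 10.2% were called higher and 14.5% lower in ExE-like wells than in iTSC. The shares were 4.38% and 8.92% in VE-like wells against iXEN, and 11.1% and 9.21% in Epi-like wells against ESC. No list was tested against these shares.

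Per cell, Id1 and Id3 varied together. Pearson's r of ln(TP10k + 1), centred within plate and given as a description over cells, was 0.42 over the cells of the ExE-like wells, 0.32 over those of the Epi-like wells and 0.30 over those of the VE-like wells, and on single plates it ran from 0.40 to 0.44, from 0.26 to 0.42 and from 0.19 to 0.46. It was 0.62 over the iXEN cells and 0.07 over the ESC. In iTSC r was 0.66 but Spearman's rho was 0.17, so that value rests on a few cells. In the Epi-like wells 70.1% of cells with Id1 also had Id3, against 39.2% of cells without Id1, at a median of 5259 and 4645 genes. Cells of 1 library preparation share plate and depth, but taking out the number of genes left r at 0.41, 0.32 and 0.30 in the 3D blocks.

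Id2 followed Id1 in the Epi-like wells (r = 0.37, single plates 0.26 to 0.53) and less so in the VE-like wells (r = 0.28). In the ExE-like wells, where Id2 was high, r of Id2 was 0.00 with Id1 and 0.02 with Id3. Of ExE-like cells with Id2, 53.8% had Id3, and of those without Id2, 54.2%. Id3 and Smad9 had r = 0.32 in the ExE-like wells (rho 0.33), where Smad9 was above 0 in 40 cells and passed the 10% minimum on plate 3 alone (r = 0.41). Id2 and Smad6 had r = 0.26 there, and Id2 and Id3 had r = 0.31 in iXEN (rho 0.24). Among the 28 pairs computed in the ExE-like wells r ran from -0.14 to 0.42 with a median of 0.03, and among the 21 pairs of the Epi-like wells from -0.06 to 0.37. Smad6 and Smad7 had r = 0.20 and Smad1 and Smad5 r = 0.06 in the ExE-like wells.

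Inside the ExE-like wells Id3 varied with trophoblast genes. Msx1 was the gene of the BMP response list closest to Id3 (r = 0.46, plates 0.32 to 0.65), and 44.7% of cells with Id3 had Msx1 against 9.20% of the others, at nearly equal median depth (5442.5 and 5386 genes). Of 6 ExE stem cell genes, Elf5 (r = -0.34), Bmp4 (r = -0.30) and Eomes (r = -0.19) ran against Id3 on every plate, as did Sox2 more weakly (r = -0.13), while Cdx2 ran with it (r = 0.22) and Esrrb gave r = -0.03. The growth factor gene Igf2 (r = -0.36), Hand1 (r = -0.23) and, from the ExE markers, the ligand gene Wnt7b (r = -0.31) also ran against Id3 on all 3 plates. The ExE markers did not share 1 direction, with Gata3 at r = 0.10, Tfap2c at 0.05 and Krt7 at -0.04. Bmp4 was above 0 in 17.9% of the cells with Id3 and 44.8% of those without. For Id2 the same genes gave r between -0.08 and 0.18, with Wnt7b at 0.18 and Elf5 at 0.17. Id2 in ExE-like wells did run against the VE-marker list (r = -0.37) and the parietal endoderm list (r = -0.34). Leaving out the cells at another block's marker level gave r = 0.46 for Id3 with Msx1 and 0.44 for Id3 with Id1.

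**Figure D5:**
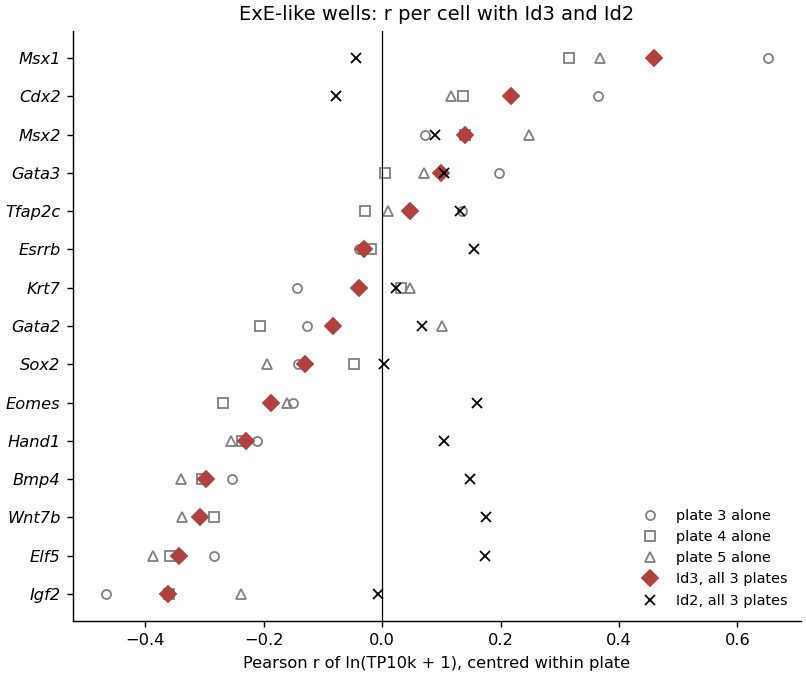
Pearson r per cell (x axis) of 15 genes (y axis) with Id3 (red diamonds, all 3 plates; open grey symbols, single plates) and with Id2 (crosses) over all cells of ExE-like wells. Genes are those of the ExE stem, trophoblast differentiation, BMP response and ExE marker lists above 0 in at least 10% of the cells. Msx1 lies farthest to the right for Id3 and Igf2 farthest to the left, on every plate with the same sign.

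The genes most like each member were sought among 7885 genes above 0 in at least 25% of the 982 3D cells, by r after centring within plate and block. For Id1 they were Id3 (0.36), Gpc3 (0.26) and Unc5b (0.23), and for Id3 Pla2g7 (0.38), Id1 (0.36) and Nfil3 (0.36), the last a leucine zipper repressor. The values of Pla2g7 and Nfil3 came from the ExE-like wells (both 0.48), with r between -0.04 and 0.03 in the other blocks. For Id2 the nearest were the tight junction genes Cldn3 (0.32) and Cldn4 (0.24) and Psap (0.24). Smad6 was closest to Id2 (0.23), Cldn3 (0.21) and Ak4 (0.18). For Smad1 (Tnrc6c, Cebpg, Tbcel), Smad5 (Ddx17, Id3, Nfil3) and Smad7 (Jarid2, Bex1, Morc4) the highest r was 0.19.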

How the data were processed

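Single cells were profiled with SMART-seq2, which keeps no strand and no molecular identifiers. Per the labels and the methods, the authors pseudoaligned reads with kallisto to the GRCm38 transcriptome, summarised genes with tximport and removed mitochondrial, ribosomal and pseudogenes, and the deposited table holds TPM for 20999 genes, without counts, so read depth is unknown and the number of genes above 0 stands in for it. Of 1931 wells, 39 held no values, and cells with fewer than 2500 genes were dropped. TPM was scaled to 10000 per cell (TP10k). Well columns came from the sample titles, the map from sort gate to columns is not given in the sources used here, and marker genes gave the names. Ratios of means, exact Clopper-Pearson 95% intervals (scipy 1.17.1) and correlations of ln(TP10k + 1) within plate were computed. The calling and correlation code was tested on simulated data. The genes, lists and comparisons were chosen with earlier results of these data known. Pathway genes called between 3D blocks or between 3D and 2D were named, and the 3 genes with the highest r for each member above 0 in at least 25% of 3D cells. Of 136 list genes 135 were found, and 2 further genes first listed are not reported here. Alternatives were other depth limits, TPM as deposited, log means, no filter, a 3-fold limit, leaving out each plate, and 2 marker filters, 1 of them chosen after seeing the data.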

Additional observations from a re-analysis of the deposited data

Results flagged for a closer look

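Id2 and Smad9 were called in opposite directions between 3D and 2D in different lineages, and the difference between the lineages was not tested. Id2 was higher in Epi-like wells than in ESC, with a ratio of 2.52, and lower in VE-like wells than in iXEN, with a ratio of 0.391, the same way on each of plates 3, 4 and 5. Its means were 0.384 against 0.153 and 0.554 against 1.42 TP10k. Smad9 had a ratio of 0.0914 for Epi-like wells against ESC and of 8.40 for ExE-like wells against iTSC, but no mean exceeded 0.0175 TP10k and it was at 0 on plates 4 and 5 of the Epi-like wells. In both comparisons Smad9 passed the filter through the group with the higher mean alone.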

How the results depend on the processing

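Counts of called genes are given out of 9. Every ratio of a called gene kept its direction under all alternatives run, with 1 exception. This was Id2 in Epi-like wells against ESC, at -0.11 on the log2 scale among cells with 6000 to 9000 genes. Leaving out a plate could hardly turn a called direction, because a call already required the same direction on each plate. With log means called at the same size, a stricter limit for low genes by its construction, the counts fell from 2, 7 and 5 between the 3D blocks (VE-like against Epi-like, ExE-like against Epi-like, ExE-like against VE-like) to 0, 1 and 1, from 4, 1 and 3 between 3D and 2D (Epi-like, VE-like, ExE-like) to 0, 0 and 1, and from 5, 6 and 5 in 2D (iTSC against ESC, iXEN against ESC, iTSC against iXEN) to 1 each. The call left was Id2, except Id3 for ExE-like against iTSC and Id1 for iXEN against ESC. A 3-fold limit gave 3 for ExE-like against VE-like, 0 for VE-like against iXEN, 3 for iXEN against ESC and 3 for iTSC against iXEN. Cells with 6000 to 9000 genes gave 3 for ExE-like against VE-like (Id3 and Smad7 lost) and 2 for VE-like against iXEN (Id3 gained), and the cause was not tested. Without plate 3, ExE-like against iTSC gave 1 (Smad5 and Smad9 lost), and without plate 5, VE-like against iXEN gave 2 (Id3 gained). Cells whose highest marker list was that of their block gave 3 for ExE-like against VE-like (Smad5 and Smad7 lost). The other 75 recomputed counts stayed within 1.5 times, but in 21 of them at least 1 called gene was gained or lost, among them Smad5 in ExE-like against VE-like wells without plate 3 and Smad7 there without plate 4 or plate 5. The group with the highest level of each gene was the same in all 27 recomputations. No paired analysis was possible because no result comes from a test, and the ratios within plates 3, 4 and 5 entered the calls themselves. Depth limits the low genes, Id4, Smad9 and, outside the trophoblast groups, Smad6.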

Other observations

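In iXEN cells the Id genes varied with the endoderm programme. Id1 and Id3 had r = 0.42 and r = 0.45 with the mean of VE-abundant genes and r = -0.39 and r = -0.38 with the Epi-marker list, and Id1 and Id3 had r = 0.62 with each other. In the VE-like wells no such list reached an r of 0.3 in size with any of the 6 genes for which it was computed (Id1, Id2, Id3, Smad1, Smad5 and Smad7). In ExE-like wells Smad7 had r = 0.24 with the trophoblast differentiation list, against r = -0.35 for Id3. These are descriptions over cells of 1 culture or pool.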
